A study of Drosophila melanogaster with 12 samples.

Results

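The comparison described here is that of the high with the low translation fraction of male flies on rich food, which covers 6 of the 12 arrays of the study and all 18769 probe sets other than controls. Adult males of the white-eyed Drosophila melanogaster strain w1118 were 1 to 2 days old when they were moved to food with 4% yeast extract (YE) for 6 days. About 100 whole flies were pooled per replicate, and a sucrose gradient sorted their RNA by size while absorbance was read at 252 nm. The high fraction held RNA with 5 or more ribosomes and the low fraction RNA with 1 to 4, and each was measured in 3 biological replicates. Flies of the same strain, sex and age kept for 6 days on 0.25% YE gave the other 6 arrays, 3 per fraction, and they enter the normalization, the mean intensity that sets which probe sets are tested and named, the estimate of spread and the last comparison. All flies were w1118 males, the labels name no untreated or other-strain group, and the extracts were of whole animals, so each value averages over all cells that hold an mRNA. In such bulk samples fewer cells of a type and less RNA per cell cannot be told apart.

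Ribosomes follow one another along a coding region, so an mRNA that is started often, or that has a long coding region, can carry many at once. Such mRNAs sink far in a sucrose gradient, while mRNAs with short coding regions have room for few ribosomes however often they are started. The position in the gradient therefore reads ribosome load and not protein output as such. Lengths were not measured here. Words such as small and large below describe the proteins in general, and a link of size with the index was not tested.

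The translational index is the difference in log2 intensity, high minus low fraction, so a positive index means higher in the high fraction. Intensities are array brightness after quantile normalization, with no unit, and they are compared between arrays for 1 probe set but not between probe sets. Equal amounts of RNA, 100 ng, went into each labelling, so an index places an mRNA against the other mRNAs and does not give the share of its copies in each fraction. A gene was called when its index differed from 0 at an adjusted p under 0.05 in limma, a linear model fitted over all 11261 probe sets bright enough to test. Of these, 34.1% were called, 16.2% higher and 17.9% lower in the high fraction (1829 and 2016 probe sets). With 1 probe set for each of 9494 genes, the shares were 16.6% higher and 17.9% lower. The main counts of every list below are to be read against these shares. List counts under another setting are not, since calls over all probe sets moved with the setting too. These were 2566 higher and 2535 lower with the replicate number as a block, and 1864 and 536 without further scaling. Without high replicate 2 they were 1158 and 1507. The median index over all probe sets was 0.02. Among the genes called, 928 had an index above 1 and 1102 an index below -1. The high and low arrays did not overlap for 54.6% of probe sets.

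The share of calls differed with brightness, as the plot of index against intensity shows. In the brightest 25% of genes 19.97% were called higher and 23.8% lower, against 12.2% and 12.05% in the dimmest 25%. The median index was between 0.01 and 0.03 in all 4 classes of brightness.

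**Figure D1:**
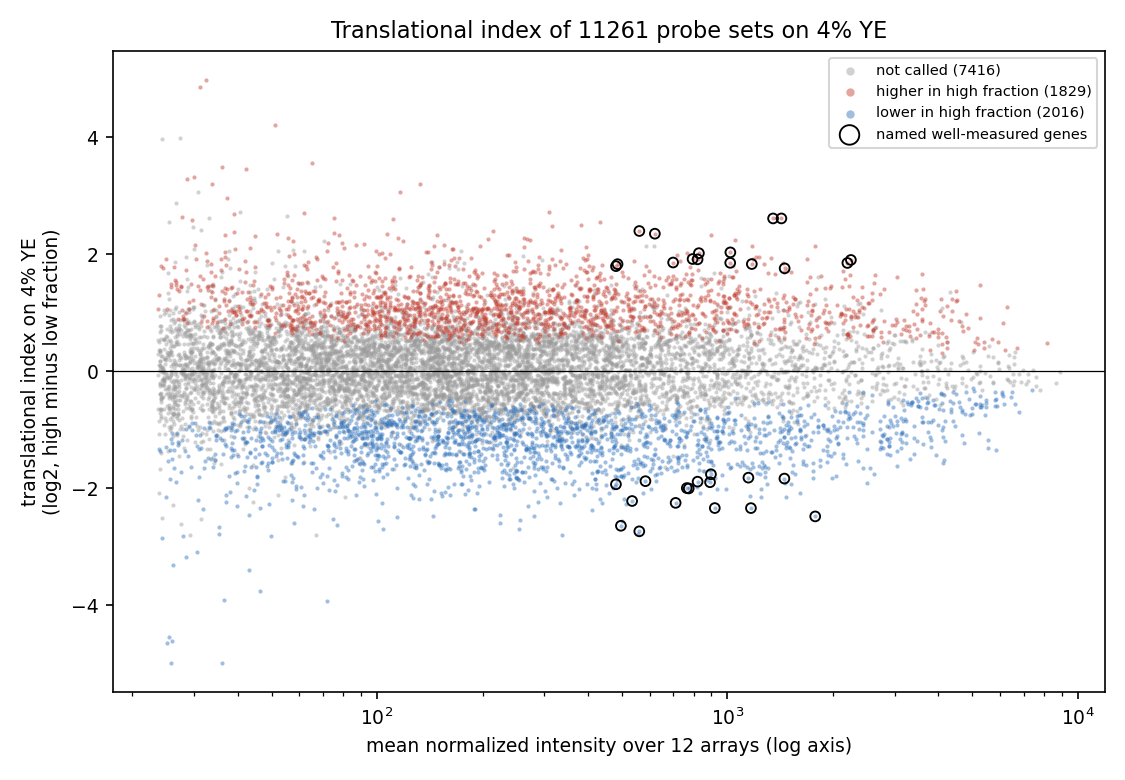
Each point is 1 of the 11261 probe sets tested, with its mean normalized intensity over 12 arrays on the x axis (log scale) and its translational index on 4% YE on the y axis (log2, high minus low fraction). Red points are called higher and blue points lower in the high fraction, grey points are not called, and rings mark the 32 named well-measured genes. Calls lie on both sides of 0 at all intensities, 1829 above and 2016 below.

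Replicate 1 stood apart from the other arrays. Log2 intensities of replicates 2 and 3 on 4% YE correlated at 0.988 in the high fraction and at 0.986 in the low fraction, while replicate 1 correlated with them at 0.931 to 0.943. On 0.25% YE, whose arrays enter the estimate of spread, replicate 1 correlated with the others at 0.899 and 0.922 in the high fraction. In the low fraction these values were 0.859 and 0.894. Leaving out low replicate 1 on 0.25% YE gave 4762 calls of the 4% YE index, against 3845. On every array 59.0% to 66.4% of probe sets lay above the 95th percentile of control probe sets, taken here as background. Without further scaling the median of all probe sets was 0.32 higher in the high fraction on the log2 scale, and the calls then split into 1864 higher and 536 lower. Directions below are therefore relative to the middle of all mRNAs. The sex label was checked with marker genes. All 11 male markers measured, among them the sperm tail gene Mst87F, were above background in all 6 arrays, with summed intensities of 18067 to 23338 in high arrays and 18450 to 21971 in low arrays. Of 14 female markers, such as yolk and eggshell genes, 0 were above background in all 6 arrays and 8 were above it in none. Their sum was 170.0 to 202 in the high and 113 to 124 in the low fraction, and its part in the results was not tested. Only the yolk protein gene Yp3 among them was bright enough to test, with 48.3, 39.7 and 37.3 in the high arrays and 3.21, 22.4 and 0 in the low arrays.

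Single well-measured mRNAs were taken from the brightest 25% of probe sets, above an intensity of 446, and had to be above background in all 6 arrays. Of the 2149 such genes outside the ribosome, respiratory chain, proteasome and seminal fluid families, 20.3% were called higher and 21.1% lower in the high fraction, and 41.3% were called without overlap between the 3 high and 3 low arrays. Their indices ran from -1.51 at the 5th to 1.33 at the 95th percentile, around a median of 0.07. The genes named next are those with the largest and smallest indices in this set, so their values are descriptions of the ends of this range. In each of them, by the rule that chose them, the lowest array of one fraction lay above the highest array of the other.

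Toward the high fraction lay enzymes of amino acid, folate and lipid metabolism together with the kinase Akt and a transferase of the nucleus and cytosol. Glutamine synthetase 1 (Gs1), which joins ammonia to glutamate, measured 1617, 1859.8 and 1688 in the high arrays and 493, 518 and 419 in the low arrays. Its index was 1.85 ± 0.18 (SE), a 3.61-fold difference (adjusted p = 0.00011). Glutamate decarboxylase 1 (Gad1), which makes the transmitter GABA from glutamate, measured 884, 1198 and 1198 in the high arrays and 234, 351 and 284 in the low arrays, with an index of 1.92 ± 0.24 (adjusted p = 0.0003). Both glutamate enzymes thus stood more than 3-fold higher in each high array than in the low array of the same number. The branched-chain aminotransferase Bcat, which starts the breakdown of leucine, isoleucine and valine, measured 992, 914 and 815 in the high arrays and 233, 279 and 249 in the low arrays, an index of 1.83 ± 0.25 (adjusted p = 0.00038). Cndp2, named after a mammalian dipeptidase, measured 1163, 1505 and 1309 in the high arrays and 296, 399.9 and 361 in the low arrays (index 1.91 ± 0.33, adjusted p = 0.0014). Arrays of one fraction lay close together for these genes, and the gap between fractions was several times that spread.

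The folate enzyme Nmdmc, which acts in mitochondria, measured 1509, 2491 and 2134 in the high arrays and 262, 745 and 613 in the low arrays. Its replicate 1 was the lowest array in both fractions. The index was 2.02 ± 0.58 (adjusted p = 0.019), and the call was lost with no filter on low values or without high replicate 2, high replicate 3, low replicate 1 or both arrays of replicate 1 (adjusted p up to 0.082, and down to 0.00081 over all alternatives). ScpX, a thiolase joined to a sterol carrier domain, measured 1357, 2099 and 1817 in the high arrays and 361, 479.7 and 434 in the low arrays, with an index of 2.03 ± 0.33 (adjusted p = 0.00092). The thiolase yip2 measured 4047, 4548 and 4230.0 in the high arrays and 937, 1400.5 and 1132 in the low arrays, and the peroxide-removing enzyme catalase (Cat) measured 3809, 4329.7 and 4197 in the high arrays and 1036, 1189.5 and 1193 in the low arrays. Both were among the brightest of the named probe sets, and both fractions were far above background for them. Cyp12a4, a mitochondrial cytochrome P450, measured 2871, 2671 and 2804 in the high arrays and 672, 985 and 835 in the low arrays, an index of 1.76 ± 0.31 (adjusted p = 0.0015).

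The kinase Akt, which carries the insulin signal, measured 375, 891 and 809 in the high arrays and 123, 247 and 209.8 in the low arrays, an index of 1.80 ± 0.45 (adjusted p = 0.0089). The O-GlcNAc transferase super sex combs (sxc), which attaches a sugar to nuclear and cytosolic proteins, measured 896, 1981 and 1858 in the high arrays and 265, 557 and 491 in the low arrays, an index of 1.83 ± 0.54 (adjusted p = 0.02). In both genes replicate 1 was about as far below the other arrays in the high as in the low fraction. The call of sxc was lost with no filter on low values or without high replicate 2, high replicate 3 or low replicate 1 (adjusted p up to 0.077, and down to 0.00021 over all alternatives). The testis gene blanks, whose product binds double-stranded RNA, measured 889, 1152 and 1123 in the high arrays and 204, 381 and 307 in the low arrays (index 1.86 ± 0.45, adjusted p = 0.0079).

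Genes known only by a number reached larger indices. CG11892 measured 1649.7, 3297 and 2986 in the high arrays and 205.3, 711 and 483 in the low arrays, a 6.11-fold difference (index 2.61 ± 0.57, adjusted p = 0.0046). CG31104 measured 1859.8, 3511 and 3303 in the high arrays and 248, 654 and 578 in the low arrays (index 2.61 ± 0.79, adjusted p = 0.023), and its call was lost under the same alternatives as that of Nmdmc, with adjusted p from 0.00034 to 0.09. The indices of CG4928 and CG4021 were 2.40 ± 0.59 and 2.35 ± 0.58. Replicate 1 was the lowest array of its fraction in all 4 of these genes, and its high array was still above every low array.

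Toward the low fraction lay mRNAs of an immune peptide, a metal-binding peptide, a heat shock cognate and small subunits of nuclear complexes. The Bomanin BomS5, a short immune-induced peptide, measured 399.1, 549 and 428 in the high arrays and 2861, 2405 and 2377 in the low arrays. This is a 5.58-fold lower level in the high fraction (index -2.48 ± 0.21, adjusted p = 0.00011). Metallothionein C (MtnC), a cysteine-rich peptide that binds metals, measured 417, 655 and 449 in the high arrays and 2721, 2507 and 2334 in the low arrays (index -2.34 ± 0.30, adjusted p = 0.00035). For both peptides the low arrays lay within a narrow band and the high arrays far below it, without overlap. Hsc70-1, of the heat shock 70 cognate family, measured 206, 278 and 258 in the high arrays and 1171, 1217 and 1352 in the low arrays (index -2.34 ± 0.22, adjusted p = 0.00011). Its other probe sets had indices of -2.09, which was called, and -0.08, which was not (adjusted p = 0.78), so the probe sets of this gene disagree.

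Polr2L and Polr2K are small subunits that the nuclear RNA polymerases share. Polr2L measured 309.5, 284 and 229.6 in the high arrays and 1229, 962 and 1104 in the low arrays (index -2.002 ± 0.29, adjusted p = 0.00056). Polr2K measured 320.0, 358 and 298 in the high arrays and 1440.2, 1113 and 1105 in the low arrays (index -1.90 ± 0.29, adjusted p = 0.00066). The 2 subunits had indices within 1 SE of each other. The splicing protein SNRPG, the Sm G subunit of the core ring of spliceosomal particles, measured 321, 381 and 360.2 in the high arrays and 1253, 1109 and 1236 in the low arrays (index -1.76 ± 0.26, adjusted p = 0.00056). Nop10, a subunit of the H/ACA particles that modify RNA, measured 188, 251 and 212 in the high arrays and 697, 871 and 827 in the low arrays (index -1.88 ± 0.27, adjusted p = 0.00056). Each of these nuclear genes was lower in all high arrays than in any low array, by 3.39-fold to 4-fold.

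Among regulators of protein turnover and growth, Roc2, the RING subunit that joins a cullin ubiquitin ligase to its conjugating enzyme, measured 182, 187 and 165 in the high arrays and 845, 613 and 607 in the low arrays (index -1.93 ± 0.29, adjusted p = 0.0006). The ubiquitin-like protein ubl measured 329, 317 and 293 in the high arrays and 1222, 1140.3 and 1115 in the low arrays (index -1.89 ± 0.28, adjusted p = 0.00057). Lamtor4, a subunit of the lysosomal Ragulator complex that anchors nutrient signalling, measured 316, 263 and 279.7 in the high arrays and 1274, 1065 and 1094 in the low arrays (index -1.995 ± 0.28, adjusted p = 0.00044). In these 3 genes the SD of the high arrays was at most 27.1, and the fractions differed by 3.7-fold to 3.99-fold. Acyp2, an acylphosphatase, had an index of -1.82 ± 0.25 (adjusted p = 0.0004).

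Arc1, a neuronal gene whose product forms virus-like capsids, had the widest spread of the named low genes. It measured 1104, 566 and 503 in the high arrays and 4165, 2021 and 1693 in the low arrays, so replicate 1 was high in both fractions. Its index was -1.83 ± 0.38 (adjusted p = 0.0035). Its other probe set had an index of -0.93 ± 1.03 that was not called (adjusted p = 0.51). The 2 smallest indices in this set belonged to CG42481 and CG13751, which are known by a number only. CG42481 measured 142, 192 and 165 in the high arrays and 1298, 835 and 1234 in the low arrays, a 6.65-fold lower level in the high fraction (index -2.73 ± 0.32, adjusted p = 0.00024). CG13751, CG31777 and CG17776 had indices of -2.64 ± 0.37, -2.25 ± 0.22 and -2.22 ± 0.34. Their high arrays ran from 98.3 to 233 and their low arrays from 666 to 1098.

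**Figure D2:**
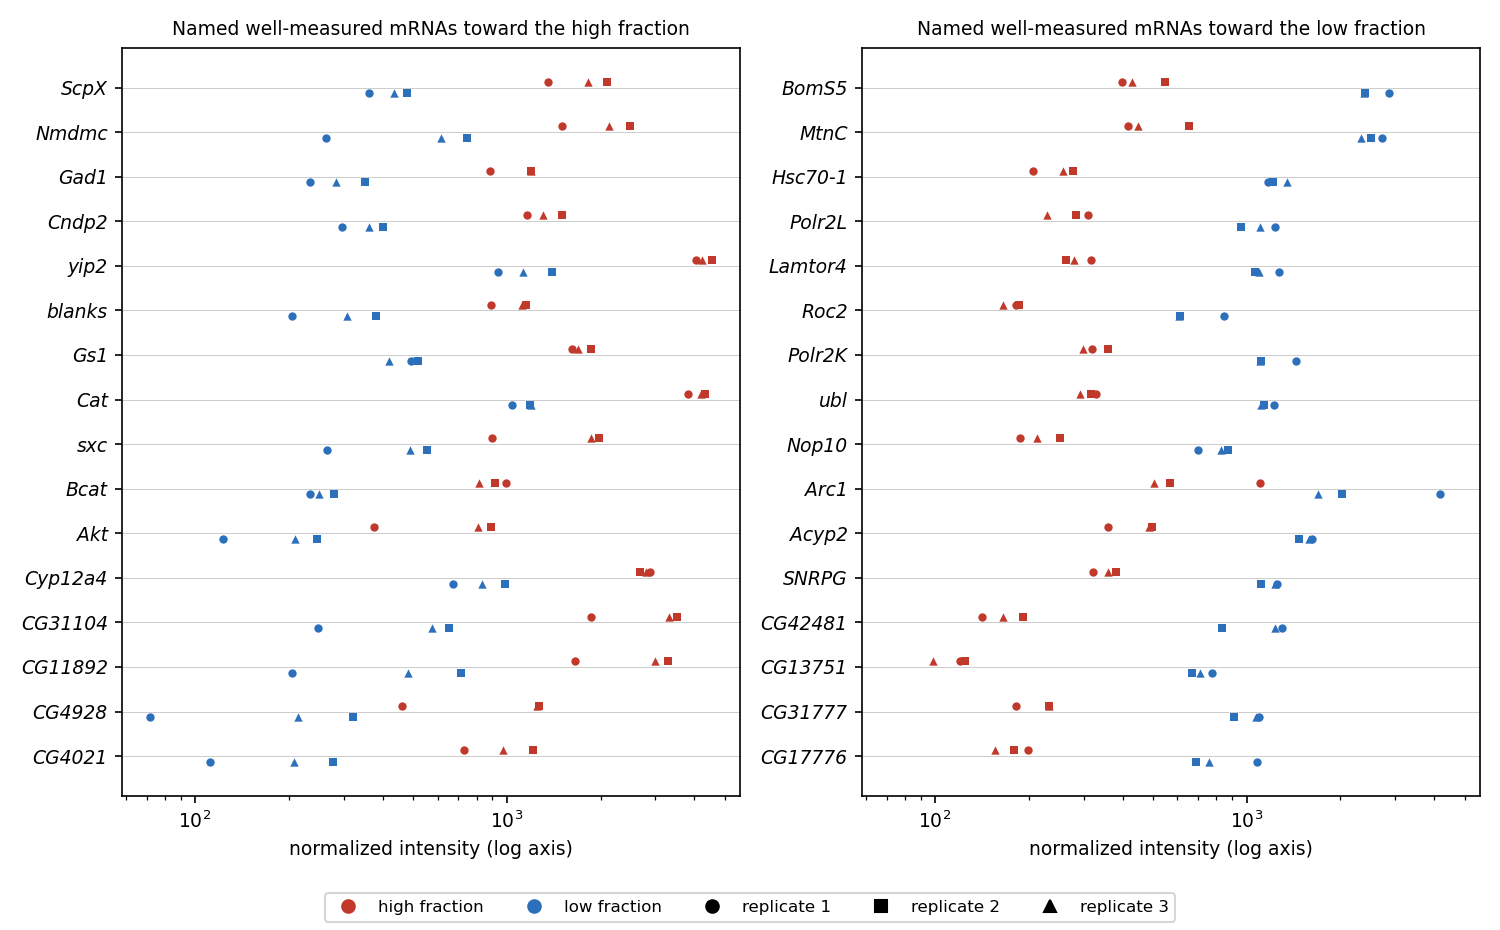
Normalized intensity (log axis) of each named well-measured gene in every array on 4% YE, with genes toward the high fraction in the left panel and genes toward the low fraction in the right panel. Red marks are high-fraction arrays and blue marks low-fraction arrays, and circles, squares and triangles are replicates 1, 2 and 3. Red and blue do not overlap for any gene, and circles are the leftmost marks of both colours for Nmdmc, sxc, Akt and CG11892.

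Gene families outside the ribosome, the respiratory chain and the proteasome were described by their calls and median index. Without scaling fewer probe sets were called lower in all (536), and list counts that then moved by more than 1.5 times are given below. Medians of the lists ran from 1.11 for tubulins to -1.31 for Sm and LSm proteins, beside 0.02 for all genes.

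Subunits of microtubules and of their motors differed. Of 6 tubulins, which form microtubules, 5 were called higher and 0 lower in the high fraction, with a median index of 1.11. alphaTub85E, a form of alpha-tubulin used in few tissues, measured 398, 407 and 315 in the high arrays and 75.8, 97.1 and 61.5 in the low arrays (index 2.26, adjusted p = 0.00017). The testis form betaTub85D measured 3073, 3479 and 3615 in the high arrays and 1740.4, 1598 and 1691 in the low arrays, and betaTub56D had an index of 0.94. The high arrays did not overlap the low arrays in any of these 3 genes. Tubulins are close copies of each other, and signal shared between their probe sets was not tested. Of 9 dynein light and intermediate chains, the small accessory chains of the motor that walks toward microtubule minus ends, 5 were called lower and 0 higher (median -0.82). The light chain robl22E measured 54.2, 68.6 and 66.2 in the high arrays and 332, 215 and 279.9 in the low arrays (index -2.10, adjusted p = 0.00023). CG13426 and robl, also in this list, had indices of -1.81 and -1.32. Without scaling 2 light chains were called lower. Of 7 dynein heavy chains, the very large motor subunits, 0 were called in either direction, with a median of 0.23 and indices from -0.17 to 0.34. In limma without adjustment, 0 of the 7 had a p under 0.05, and the calls were 0 in every alternative run.

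Of 16 kinesins, the motors that mostly walk toward plus ends, 4 (25%) were called higher and 0 lower, with a median of 0.06. Of all genes 16.6% were called higher. The kinesin light chain Klc measured 615, 511 and 605 in the high arrays and 160.0, 272 and 270.3 in the low arrays (index 1.33, adjusted p = 0.0034), and Klp98A and unc-104 had indices of 0.89 and 1.23. In the actin cytoskeleton 4 of 14 large crosslinkers, myosins and spectrins were called higher and 0 lower (median 0.27). The bundling proteins Fim and singed (sn) had indices of 1.79 and 1.52. Fim measured 565, 784 and 626 in the high arrays and 195, 199.9 and 172 in the low arrays. Of 13 small actin regulators and Arp2/3 subunits 0 were called higher and 3 (23.1%) lower, beside 17.9% of all genes called lower. The median was -0.19, and 0.00 without scaling. The lower ones were the Arp2/3 subunits Arpc5 (-0.98) and Arpc4 (-0.93) and profilin, chic (-0.52). These last calls were few and unstable, with 1 left without high replicate 2, high replicate 3, low replicate 1 or low replicate 3 and 0 without both arrays of replicate 1 or without scaling. Profilin was not called when any 1 array on 4% YE was left out. The kinesin calls became 2 without high replicate 2, high replicate 3 or low replicate 3, and with the replicate block 1 kinesin was called lower.

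In protein folding, the chaperonin CCT lay toward the high fraction and prefoldin toward the low. CCT is a ring of 8 related subunits that folds actin and tubulin, and prefoldin is a small complex that hands it new chains. All 8 CCT genes were tested, and 7 were called higher and 0 lower (median 1.10). CCT4 measured 1342, 1039 and 883 in the high arrays and 501, 399.3 and 326 in the low arrays (index 1.41, adjusted p = 0.0012). CCT7 measured 1070.3, 822 and 776 in the high arrays and 381, 343 and 299.9 in the low arrays, and CCT1 had an index of 1.21. Replicates 2 and 3 ran below replicate 1 in both fractions for CCT4 and CCT7, and the arrays of the 2 fractions did not overlap. The subunit that was not called, CCT3, had an index of 0.74 (adjusted p = 0.1), and it was called with the replicate number as a block.

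Of 14 prefoldin subunits and small cochaperones, 3 were called higher and 5 lower (median -0.35). The 5 lower ones were all prefoldin subunits, named here after their values were seen: Pfdn2 (-1.22), Pfdn5 (-1.04), Pfdn6 (-1.03), Pfdn4 (-0.95) and Pfdn1 (-0.63). Pfdn6 measured 634, 674 and 638 in the high arrays and 1333, 1327 and 1309.7 in the low arrays, so its arrays were within a few percent of each other in each fraction. The 3 higher ones were the chaperone partners Fkbp59 (1.40), Cdc37 (1.18) and STUB1 (1.21). The lower calls became 3 without high replicate 2, high replicate 3, low replicate 1 or low replicate 3, and without both arrays of replicate 1, and the higher calls became 6 with the replicate block. Pfdn1 was not called without any 1 array on 4% YE other than high replicate 1, nor STUB1 without high replicate 2, high replicate 3 or low replicate 1. With arrays as deposited 4 were called higher and 0 lower.

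In the ubiquitin system the list of modifiers and the list of cullins and large ligases had medians of opposite sign. Of 9 ubiquitin and ubiquitin-like modifiers, small proteins that are joined to other proteins, 1 was called higher and 5 lower in the high fraction (median -1.06). Nedd8, which activates cullins, measured 349, 385 and 355 in the high arrays and 1153, 986 and 983 in the low arrays (index -1.51, adjusted p = 0.00073). The autophagy modifier Atg8b measured 376, 434 and 407 in the high arrays and 994, 897 and 1111 in the low arrays (index -1.30, adjusted p = 0.00064). The member called higher was Ubi-p5E, a gene of the polyubiquitin type, with 2290.3, 3414 and 3032 in the high arrays and 1547, 1420.5 and 1473 in the low arrays (index 0.96, adjusted p = 0.0075). Polyubiquitin genes encode several ubiquitins in one chain. Without scaling 1 modifier was called higher and 2 lower. Of 17 ubiquitin-conjugating enzymes, 0 were called higher and 4 (23.5%) lower (median -0.53), beside 17.9% of all genes called lower. The lower count was 7 with the replicate block and 0 without scaling. Ubc7 had an index of -1.11, CG2574 one of -1.02 and CG14739 one of -0.99.

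Of 27 cullins and large ubiquitin ligases, 9 were called higher and 3 lower (median 0.47). The F-box protein slmb measured 302, 352 and 324 in the high arrays and 83.9, 124 and 103.9 in the low arrays (index 1.66, adjusted p = 0.00038). The 3 lower ones were the RING partners of the cullins, Roc1a, Roc1b and Roc2. Roc1a measured 166, 198 and 189 in the high arrays and 549, 507 and 555 in the low arrays (index -1.54, adjusted p = 0.00044), and Roc1b had an index of -1.23. All 3 RING genes were called lower in each alternative that left out an array on 4% YE, and without scaling 2 were. The COP9 signalosome removes Nedd8 from cullins. Of its 9 genes 2 (22.2%) were called higher, beside 16.6% of all genes, and 0 lower (median 0.33). The higher ones were alien (1.12) and CSN1b (0.79). That count was 1 without high replicate 1, high replicate 2, low replicate 1 or low replicate 3, and 0 without both arrays of replicate 1. Of 20 autophagy genes 5 (25%) were called higher and 3 (15%) lower (median 0.44), beside 16.6% and 17.9% of all genes. The ubiquitin-binding adaptor ref(2)P at 1.38 and Atg18a at 0.81 were on the high side. Atg14 at -1.18, Atg16 at -0.56 and Uvrag at -0.73 were on the low side. The higher autophagy calls became 3 without high replicate 2 or low replicate 3, and the lower ones 1 without any of high replicates 2 and 3 and low replicates 1, 2 and 3, and 0 without scaling.

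In the nucleus the Sm and LSm proteins, which form small rings on RNA in splicing and decay, lay furthest toward the low fraction of all lists. Of 14 tested, 10 were called lower and 0 higher (median -1.31). The Sm G subunit SNRPG, given above with an index of -1.76, is not among the 14. SmF measured 160.2, 208 and 169 in the high arrays and 695, 605 and 626 in the low arrays (index -1.84, adjusted p = 0.00034). CG9344 measured 116, 107 and 97.9 in the high arrays and 531, 385 and 426 in the low arrays (index -2.04, adjusted p = 0.00058). Lsm10, of the particle that processes histone mRNA, measured 31.5, 24.8 and 27.5 in the high arrays and 67.4, 68.4 and 71.9 in the low arrays (index -1.29, adjusted p = 0.00089). The 3 genes differ widely in brightness, and in each the low arrays were all above the high arrays. The 4 that were not called were Lsm11 (0.35), SmB (0.18), SmD3 (0.07) and SmD1 (-0.33). Without scaling 5 were called lower and 0 higher.

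Of 6 RNA polymerase II subunits, 3 were called lower and 0 higher (median -0.83), Polr2L and Polr2K as given above and Polr2E at -0.90. The Polr2E call was lost when any 1 array on 4% YE was left out and without scaling. Of 20 TFIID subunits and general transcription factors, 4 were called higher and 5 lower (median 0.15). These shares were 20% and 25%, beside 16.6% and 17.9% of all genes. On the low side Taf10b measured 193, 199.1 and 182 in the high arrays and 545, 417 and 431 in the low arrays (index -1.26, adjusted p = 0.00093), and Taf12 had an index of -1.01. On the high side were Taf5 (0.94), TfIIEbeta (0.93), Taf7 (0.88) and the elongation factor TfIIS (0.70). The higher calls became 2 without high replicate 1, 2 or 3 and 1 without low replicate 2 or 3, and without scaling the list had 3 higher and 0 lower. TfIIEbeta was not called when any 1 array on 4% YE was left out.

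Mediator is the complex that links activators to the polymerase. Of 26 subunits 5 were called higher and 5 lower (19.2% each, near the 16.6% and 17.9% of all genes). The median was -0.04, and 0.28 without scaling and 0.03 with median centring. The 5 higher ones were the kinase Cdk8 (1.44), skd (1.30), MED17 (1.07), MED25 (0.85) and MED24 (0.59), and the 5 lower ones MED18 (-1.24), the cyclin CycC (-1.13), MED31 (-1.04), MED19 (-0.80) and MED11 (-0.71). The large subunit skd measured 86.6, 149.5 and 129 in the high arrays and 46.2, 48.7 and 48.4 in the low arrays (adjusted p = 0.0029). MED31 measured 194, 159.8 and 181 in the high arrays and 364, 351 and 388 in the low arrays (adjusted p = 0.0015). Cdk8 and CycC, which are partners in the kinase module, thus had indices of opposite sign. Calls on the high side became 3 without high replicate 1 or low replicate 3, the lower ones 3 without high replicate 2, low replicate 2 or 3 or both arrays of replicate 1, and without scaling 4 were higher and 0 lower. MED24 was not called without any 1 array on 4% YE other than low replicate 1, nor MED19 without any other than high replicate 1.

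Of 24 other splicing factors 6 were called higher and 4 lower (median 0.34), beside 16.6% and 17.9% of all genes. RnpS1, a protein of the exon junction, measured 379.8, 298 and 363 in the high arrays and 119, 136 and 135 in the low arrays (index 1.40, adjusted p = 0.00047). On the low side were the small SF3b subunits Sf3b6 and Sf3b5. Sf3b6 measured 215, 354 and 321 in the high arrays and 879, 929 and 978 in the low arrays (index -1.67, adjusted p = 0.00037), and Sf3b5 had an index of -1.54. The larger SF3b genes had indices of 0.57 (Sf3b1), 0.87 (Sf3b2, called) and 0.01 (Sf3b3). The other members called lower were the sex-determination factor tra2 (-1.32) and tsu (-1.01). The higher calls became 3 without high replicate 1, low replicate 3 or both arrays of replicate 1, and without scaling 2 were lower. The tsu call was lost without any 1 array on 4% YE other than high replicate 1, and that of Sf3b2 without high replicate 1 or low replicate 2 or 3.

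Chromatin and RNA-binding regulators lay toward the high fraction. Of 36 chromatin remodellers and modifiers 14 were called higher and 0 lower (median 0.39). The acetyltransferase nej measured 284, 142 and 129 in the high arrays and 48.4, 71.9 and 59.2 in the low arrays (index 1.54, adjusted p = 0.0018). The deacetylase Sirt1 and the methyltransferase trx had indices of 1.13 and 1.21. The count became 7 without low replicate 3 or without both arrays of replicate 1, and 9 without scaling. Of 23 RNA-binding regulators of translation 10 were called higher and 0 lower (median 0.75). The hnRNP protein Hrb98DE measured 1232, 1123 and 1155 in the high arrays and 550.1, 571 and 513 in the low arrays (index 1.10, adjusted p = 0.00073). Hrb87F, a related hnRNP protein, measured 1003, 720.2 and 715 in the high arrays and 344, 330.4 and 279 in the low arrays, and the polypyrimidine-tract binding protein heph had an index of 1.61. This count became 6 without high replicate 2, high replicate 3 or low replicate 1.

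Of 26 nuclear pore genes 6 (23.1%) were called higher and 1 (3.85%) lower (median 0.41), beside 16.6% and 17.9% of all genes. Nup43 (1.51), Nup75 (1.05) and Nup188 (1.02) led the high side, and Elys (-0.64) was on the low side. Calls on the high side became 3 without low replicate 3 or both arrays of replicate 1, and Elys was not called when any 1 array on 4% YE was left out or without scaling. Of 26 mRNA decay genes 5 (19.2%) were called higher and 1 (3.85%) lower (median 0.33), beside 16.6% and 17.9% of all genes. The helicase me31B (1.48) and Not3 (0.89) were among the higher ones. The exosome subunit Csl4 (-1.10) was the lower one, except without scaling. The higher calls became 1 without high replicate 2, high replicate 3 or low replicate 1, 3 without low replicate 2 and 2 without low replicate 3 or both arrays of replicate 1, and with the replicate block 2 were called lower. Of 17 small RNA pathway genes 2 (11.8%) were called higher and 0 lower (median 0.52), with the higher share below the 16.6% of all genes. One of them, the piRNA protein aub, measured 54, 43.5 and 30.3 in the high arrays and 10.9, 8.6 and 11.5 in the low arrays, which were all at background. Its index of 1.91 thus depends on a group without measured signal. The other was mael (0.52), whose call was lost when any 1 array on 4% YE was left out and without scaling. With the replicate block 4 of the small RNA genes were called higher.

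**Figure D3:**
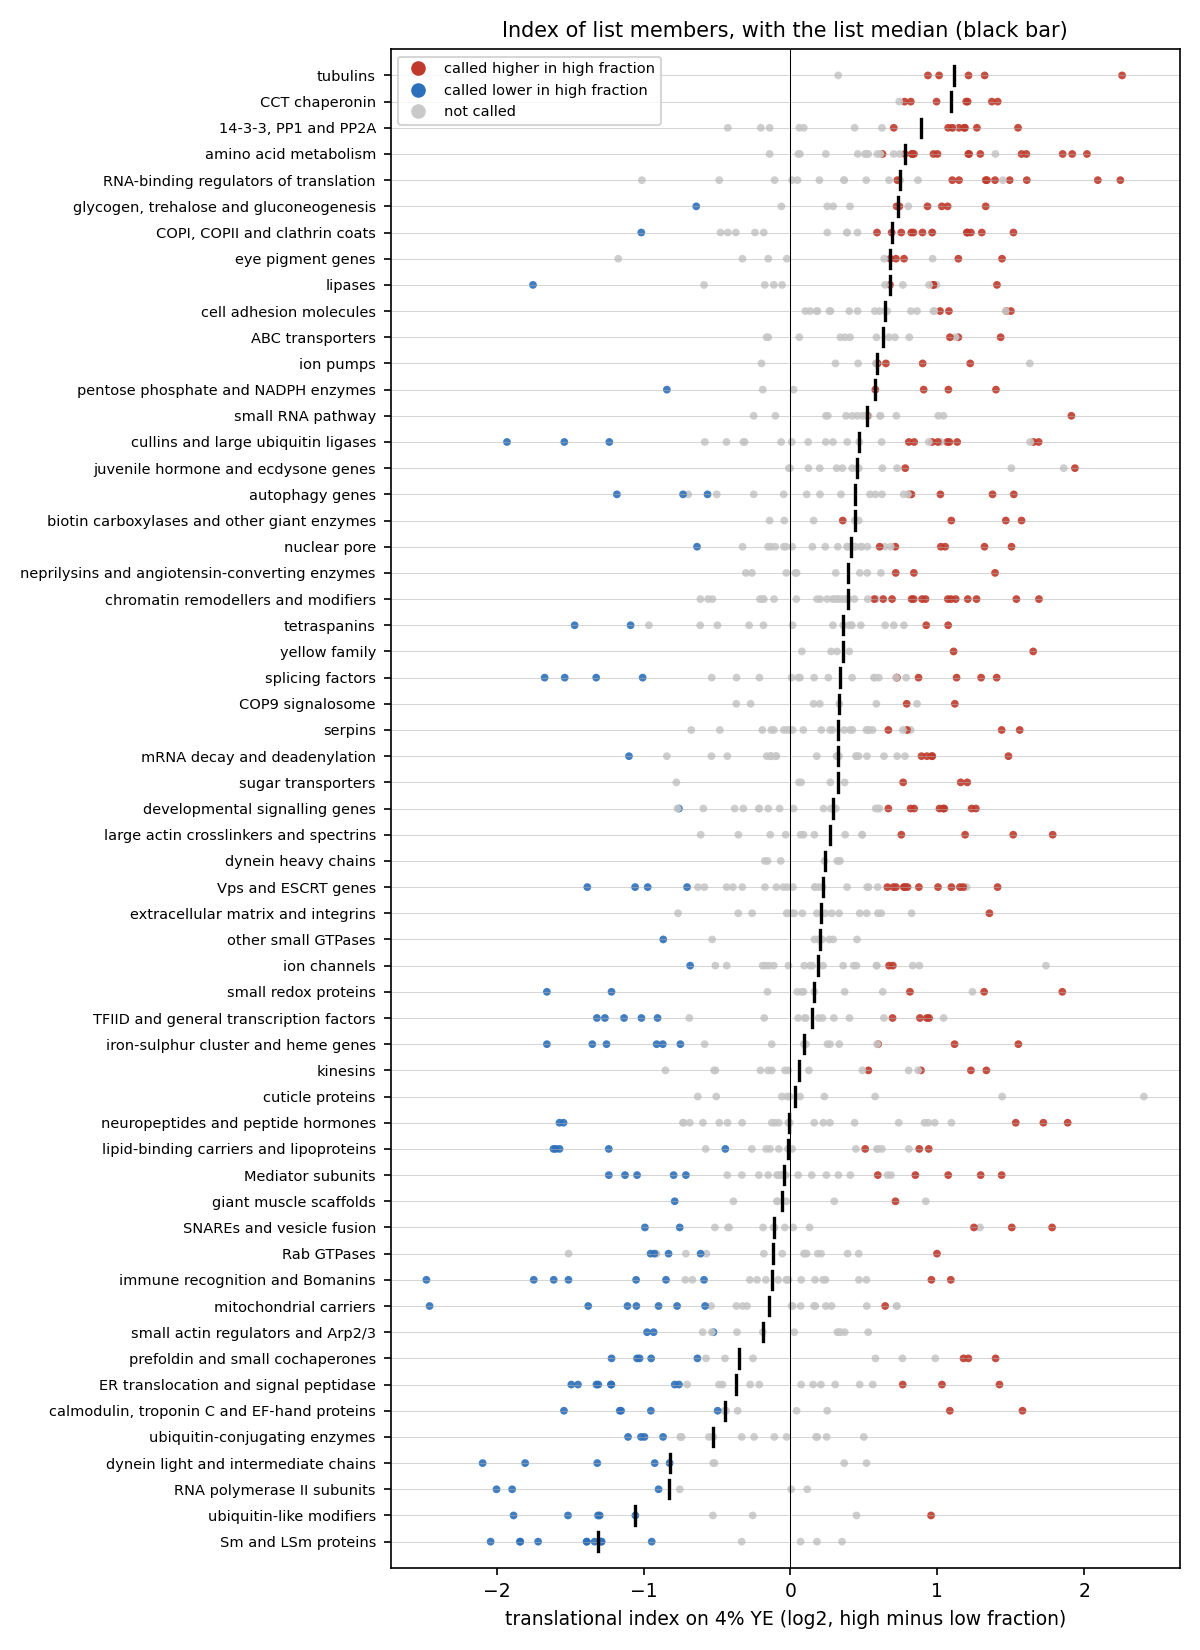
Translational index on 4% YE (x axis, log2, high minus low fraction) of every tested member of each list with 5 or more tested genes, 1 row per list. Red points are called higher and blue points lower in the high fraction, grey points are not called, and the black bar is the list median. Rows are ordered by median, from tubulins at 1.11 to Sm and LSm proteins at -1.31.

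In the secretory pathway the parts of single machines lay on both sides. The signal recognition particle (SRP) binds a signal peptide as it leaves the ribosome, and the Sec61 channel then takes the chain into the endoplasmic reticulum, where signal peptidase trims it. Of 22 genes of this machinery 3 were called higher and 8 lower in the high fraction (median -0.37, and -0.02 without scaling). Srp72, the largest SRP protein, measured 358, 252 and 233 in the high arrays and 122, 102 and 86.7 in the low arrays (index 1.42, adjusted p = 0.00066). Srp68, its partner, measured 1138, 1059.9 and 962 in the high arrays and 537, 535 and 471 in the low arrays (index 1.03, adjusted p = 0.0032). Srp9, the smallest, measured 130.4, 220.1 and 215 in the high arrays and 503, 477 and 579 in the low arrays (index -1.49, adjusted p = 0.00066). The 3 proteins sit in one particle, and their mRNAs differed in the sign of the index.

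The channel showed the same division. Its pore subunit Sec61alpha measured 1374, 1826 and 1790.4 in the high arrays and 1048, 968 and 903 in the low arrays (index 0.76, adjusted p = 0.02). The small subunit Sec61gamma measured 710.5, 1232 and 1144 in the high arrays and 2794, 2606 and 2794 in the low arrays (index -1.45, adjusted p = 0.00084). The Sec61alpha call was lost in 4 of the alternatives. The other genes called lower, named after their values were seen, were Srp14 (-1.32), Spase12 (-1.31), Sec61beta (-1.22), Dad1 (-1.22), twr (-0.79) and Tapdelta (-0.76). With the replicate block the calls were 5 higher and 8 lower, and without scaling 3 and 3.

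**Figure D4:**
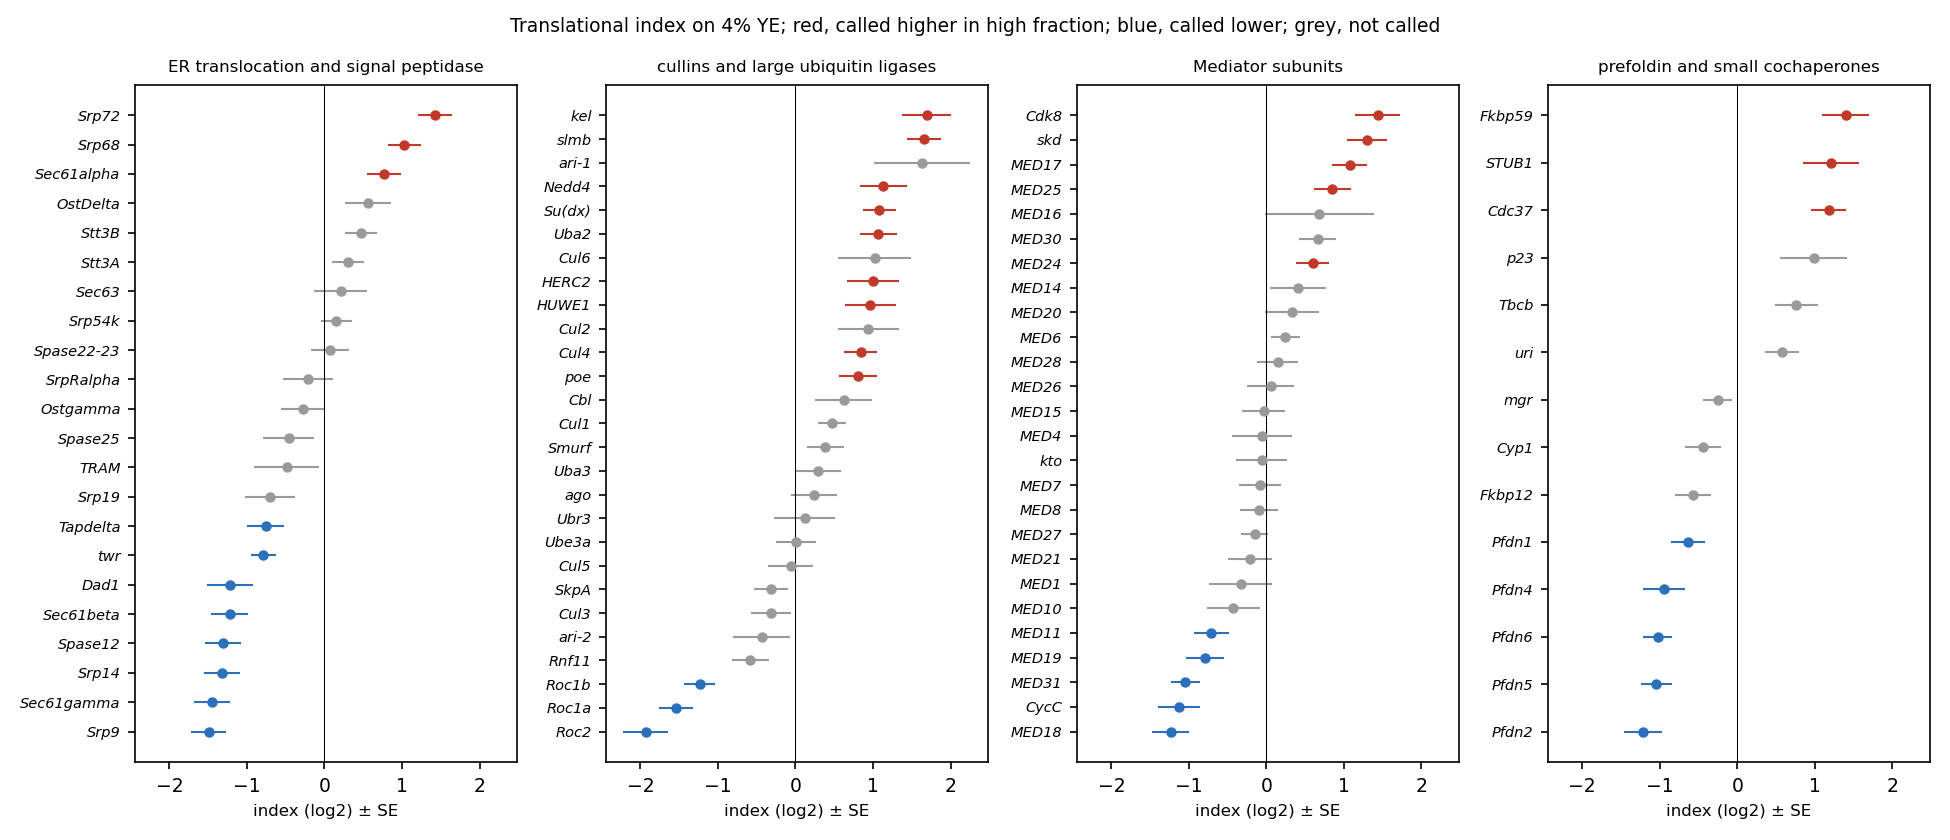
Index on 4% YE (x axis, log2, high minus low fraction, with bars of ± 1 SE from limma) of each tested gene in 4 lists with calls in both directions, 1 panel per list. Red is called higher in the high fraction, blue called lower and grey not called. Srp72 and Srp9, slmb and Roc2, Cdk8 and CycC, and Fkbp59 and Pfdn2 lie on different sides of 0.

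Coats shape vesicles between compartments. Of 23 genes of the COPI, COPII and clathrin coats 12 were called higher and 1 lower (median 0.69). The COPI subunit alphaCOP measured 843, 1153 and 993 in the high arrays and 493, 422 and 380.4 in the low arrays (index 1.20, adjusted p = 0.0034), and gammaCOP had an index of 1.23. The endocytic adaptor AP-2alpha measured 338, 674 and 596 in the high arrays and 169.6, 178 and 189.7 in the low arrays (index 1.52, adjusted p = 0.0034). Its small partner AP-2sigma was the 1 gene on the low side, with 590.1, 589 and 620.1 in the high arrays and 1279, 1138 and 1228 in the low arrays (index -1.02, adjusted p = 0.026). The AP-2sigma arrays did not overlap, but the call was lost when any 1 array on 4% YE was left out and without scaling.

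Of 35 Vps and ESCRT genes, which sort cargo to the lysosome, 12 were called higher and 4 lower (median 0.22). Vps45 measured 94.7, 81.3 and 89.4 in the high arrays and 33.1, 30.5 and 34.3 in the low arrays (index 1.41, adjusted p = 0.00077), and Vps16A had an index of 1.10. The ESCRT-II subunit Vps25 measured 214, 232 and 209 in the high arrays and 607, 555 and 553 in the low arrays (index -1.38, adjusted p = 0.00098). The other lower members were lsn (-1.06), the retromer subunit Vps29 (-0.97) and Vps24 (-0.70). Calls on the high side became 7 without low replicate 2 and 5 without low replicate 3, the lower ones 2 without any 1 of high replicates 2 and 3 and low replicates 1, 2 and 3 and 1 without both arrays of replicate 1, and without scaling the list had 11 higher and 0 lower. Of 16 SNARE and fusion genes 3 were called higher and 2 lower (median -0.11, and 0.25 without scaling). These shares were 18.75% and 12.5%, beside 16.6% and 17.9% of all genes. Rop, which binds syntaxin at the synapse, measured 352, 522 and 456 in the high arrays and 101, 146 and 137 in the low arrays (index 1.78, adjusted p = 0.00032), and Slh had an index of 1.25. The SNAREs Vamp7 and Membrin, the members called lower, had indices of -0.75 and -0.99, and without scaling 4 genes of the list were higher and 0 lower. Of 18 Rab GTPases, switches of vesicle traffic, 1 (5.56%) was called higher and 4 (22.2%) lower, beside 16.6% and 17.9% of all genes. The median was -0.12, and 0.20 without scaling. Rab21 (-0.83), RabX1 (-0.93) and RabX2 (-0.95) were among the lower ones and Rab2 (1.00) was the higher one. The Rab2 call was lost without high replicate 2, high replicate 3 or low replicate 1, the lower calls became 2 without high replicate 2, low replicate 3 or both arrays of replicate 1, and without scaling 1 was higher and 0 lower.

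In metabolism the amino acid enzymes had the most calls, in the longest of the metabolic lists. Of 29, 15 (51.7%) were called higher and 0 lower in the high fraction (median 0.78), with indices from -0.14 to 2.02. The share called higher was 57.1% for pentose phosphate and NADPH enzymes and 50% for glycogen, trehalose and gluconeogenesis, beside 16.6% of all genes. Gs1 and Gad1 were given above. Mccc1, the biotin subunit of an enzyme of leucine breakdown, measured 401, 395 and 395 in the high arrays and 131, 144 and 125 in the low arrays (index 1.57, adjusted p = 0.00032). The count became 8 without both arrays of replicate 1. Of 12 genes of glycogen, trehalose and gluconeogenesis 6 were called higher and 1 lower (median 0.73). Pepck1, the first step of gluconeogenesis from citric acid cycle intermediates, measured 6248, 5736 and 5736 in the high arrays and 2755, 3220.0 and 2715 in the low arrays (index 1.03, adjusted p = 0.00066). The glycogen branching enzyme AGBE had an index of 1.33 and the trehalose synthase Tps1 one of 0.74. G6P, the gene called lower (-0.64), lost its call when any 1 array on 4% YE was left out and without scaling.

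Of 7 pentose phosphate and NADPH enzymes 4 were called higher and 1 lower (median 0.58). Malic enzyme (Men) measured 2924, 3319 and 3368 in the high arrays and 1051, 1361 and 1243 in the low arrays (index 1.40, adjusted p = 0.00019). The isocitrate dehydrogenase Idh measured 7259, 7726 and 7592 in the high arrays and 3578, 4448 and 4055 in the low arrays, and Taldo had an index of 0.58. Rpi was the lower one (-0.84) and lost its call without high replicate 2 or 3, without any low replicate and without scaling, and the higher calls became 2 without low replicate 1 or 3. Of 17 genes of iron-sulphur clusters, heme and iron 3 were called higher and 6 lower (median 0.09, and -0.04 with median centring). Ferrochelatase (FeCH), the last enzyme of heme synthesis, measured 1502, 1241 and 1165 in the high arrays and 433, 476 and 416 in the low arrays (index 1.55, adjusted p = 0.00039). Nfs1, the desulphurase that supplies sulphur to clusters, had an index of 1.12, and the transferrin Tsf1 one of 0.60. The glutaredoxin Grx1 measured 604, 647 and 619 in the high arrays and 2043, 1916 and 1949 in the low arrays (index -1.66, adjusted p = 0.00027). Also lower were bcn92, the small partner of Nfs1 (-1.35), and Fer3HCH (-1.25), so Nfs1 and its partner had indices of opposite sign. The Tsf1 call was lost without any 1 array on 4% YE other than low replicate 1, and without scaling 2 were higher and 1 lower.

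Of 21 lipid-binding carriers and lipoproteins 3 (14.3%) were called higher and 5 (23.8%) lower, beside 16.6% and 17.9% of all genes. The median was -0.02, and 0.29 without scaling. The 5 lower ones were all acyl-CoA binding proteins, which are small carriers of fatty acyl chains. Acbp1 measured 379.9, 509 and 473 in the high arrays and 1324, 1352 and 1423 in the low arrays (index -1.60, adjusted p = 0.00045). Acbp5 measured 2352, 2171 and 1904 in the high arrays and 5127, 4997 and 4975 in the low arrays (index -1.24, adjusted p = 0.00082), and Acbp3, Acbp6 and Acbp2 had indices of -1.57, -1.61 and -0.44. Acbp genes are related in sequence, and shared signal between their probe sets was not tested. The higher ones were the lipoprotein precursor apolpp (0.51), the sterol transporter Npc1a (0.88) and Snmp2 (0.94). Their count became 1 without high replicate 2, high replicate 3 or low replicate 2, 0 without low replicate 3 and 6 with the replicate block (Snmp2 was lost when any 1 array on 4% YE was left out), and without scaling 2 were higher and 3 lower. Of 22 mitochondrial carriers 1 was called higher and 7 lower (median -0.14, and 0.11 without scaling), with porin, the outer-membrane channel, at 0.65 and the dicarboxylate carrier Dic3 at -1.38. Ucp4B, at -2.46, was above background in 1 of 3 high arrays. The lower calls became 3 without both arrays of replicate 1, and without scaling 0 were higher and 1 lower, while the higher ones became 2 without high replicate 1 and 3 with the replicate block.

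Among signalling genes, 8 of 16 members of the list named 14-3-3, PP1 and PP2A were called higher and 0 lower (median 0.89). The list also holds phosphatases of other families, among them PpD3 and the calcineurin genes CanA-14F (1.55) and Pp2B-14D (1.07), all called higher. The phosphatase PpD3 measured 342, 398 and 382 in the high arrays and 145, 172 and 175 in the low arrays (index 1.19, adjusted p = 0.001). The PP1 subunit flw and the PP2A subunit wdb had indices of 1.18 and 1.10. The count became 4 without high replicate 2, high replicate 3 or low replicate 1. Of 12 calcium-binding EF-hand proteins 2 were called higher and 5 lower (median -0.44). The muscle troponin C TpnC41C measured 965, 1418 and 1311 in the high arrays and 2538, 2799 and 2782 in the low arrays (index -1.15, adjusted p = 0.00057). The neuronal calcium sensor Nca measured 286, 465 and 476 in the high arrays and 1043, 1199 and 1258 in the low arrays (index -1.54, adjusted p = 0.00066), and azot had an index of -0.95. The higher ones, Cbp53E (1.58) and Frq1 (1.09), both lost their calls without high replicate 2, high replicate 3 or low replicate 1, and without scaling 2 were higher and 2 lower. Of 24 developmental signalling genes 8 were called higher and 1 lower (median 0.29), with Stat92E (1.23), tkv (1.02) and Dsor1 (1.26) on the high side and p38a (-0.76) on the low side. The higher calls became 5 without low replicate 2 and 4 without low replicate 3, and that of p38a was lost without high replicate 2 or 3 or low replicate 2 or 3 and without scaling. On the low side 2 were called with the replicate block.

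Of 26 neuropeptide precursors 3 were called higher and 2 lower (11.5% and 7.69%, below the shares of all genes), with a median of -0.01, and 0.26 without scaling and 0.01 with median centring. Nplp1, a long precursor cut into many peptides, measured 361, 380.3 and 443 in the high arrays and 94.1, 132 and 133 in the low arrays (index 1.72, adjusted p = 0.00029). Nplp3 measured 928, 902 and 887 in the high arrays and 2528, 2709.8 and 2699 in the low arrays (index -1.55, adjusted p = 0.0011), and Nplp4 had an index of -1.57. The genes share a name, not a sequence family, and Nplp3 and Nplp1 had indices of opposite sign with no overlap of arrays. With the replicate block 7 were called higher. Of 24 immune recognition genes and Bomanins 2 were called higher and 7 lower (median -0.13, and 0.21 without scaling). The lower ones included BomS5, given above, BomS4, with 855, 1379.5 and 1154 in the high arrays and 3722, 3619.9 and 3838 in the low arrays (index -1.75, adjusted p = 0.00024), and BomT2 (-1.51). The higher ones were the prophenoloxidase PPO1 (0.96), an enzyme of melanin formation, and the receptor PGRP-LF (1.09). The PGRP-LF call was lost in 3 alternatives, and the higher calls became 1 without high replicate 1 or low replicate 2 or 3. Bomanins are close copies of each other, and shared signal between their probe sets was not tested.

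Surface and secreted families varied in their share of calls. Of 21 cell adhesion genes 4 (19.0%) were called higher and 0 lower (median 0.64), with the higher share near the 16.6% of all genes. The higher count was 8 under the replicate block, 7 without high replicate 1 or without scaling, and 2 without low replicate 1. The protease kuz, Ten-a and neuroglian (Nrg) had indices of 1.47, 1.501 and 1.08. Of 26 serpins, inhibitors of serine proteases, 4 (15.4%) were called higher and 0 lower (median 0.33), with the higher share below the 16.6% of all genes. Serpin counts were 9 higher and 1 lower with the replicate block, 2 higher without low replicate 3 and 1 lower without high replicate 1. Spn55B measured 537, 872 and 722 in the high arrays and 206, 277 and 228 in the low arrays (index 1.56, adjusted p = 0.0023). Of 10 ion pumps 5 were called higher and 0 lower (median 0.59), among them the calcium pump SERCA (0.65), and the count was 3 without high replicate 2, high replicate 3 or any low replicate. Of 8 sugar transporters 3 were called higher and 0 lower (median 0.32). The trehalose transporter Tret1-1 measured 3658, 3976 and 4165 in the high arrays and 2162, 1668 and 1505 in the low arrays (index 1.16, adjusted p = 0.00042), and 1 sugar transporter was called lower with the replicate block. Of 22 ion channels 2 (9.09%) were called higher and 1 (4.55%) lower (median 0.18), below the shares of all genes. With the replicate block 6 channels were called higher. The 3 channel calls, Sh (0.70), cac (0.67) and Irk2 (-0.68), were all lost without high replicate 2 or 3 or without scaling. Sh and cac also lost theirs without any other array on 4% YE, and Irk2 without low replicate 1. Of 10 cuticle proteins 0 were called in limma, 0 had an unadjusted p under 0.05, and 1 was called higher with the replicate block.

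Smaller families added single well-separated genes. Of 11 eye pigment genes 5 were called higher and 0 lower (median 0.68), and the count was 3 without any 1 high replicate or without low replicate 2 or 3. With the replicate block or without low replicate 1, 1 was called lower. The pteridine enzyme Pu measured 662, 742 and 725 in the high arrays and 228, 286 and 272 in the low arrays (index 1.44, adjusted p = 0.00035). Of 14 ABC transporters 3 (21.4%) were called higher and 0 lower (median 0.63), beside 16.6% of all genes called higher. The higher count was 5 with the replicate block or without high replicate 1, and 6 without scaling. Mdr65, a multidrug pump, measured 152, 187 and 151 in the high arrays and 58.8, 59.9 and 59.98 in the low arrays (index 1.43, adjusted p = 0.00097). Of 13 genes in the list named small redox proteins, which also holds the enzyme Cat, 3 were called higher and 2 lower (median 0.16). These shares were 23.1% and 15.4%, beside 16.6% and 17.9% of all genes. The higher count was 5 with the replicate block. Called higher were Cat (1.85), Trxr1 and Txl (0.81). Called lower were Trx2 and Grx1 (-1.66), a gene also counted above with the iron-sulphur genes. Thioredoxin reductase (Trxr1) measured 2515, 2774 and 2451 in the high arrays and 894, 1206 and 1019.7 in the low arrays (index 1.32, adjusted p = 0.00051), while its substrate thioredoxin Trx2 measured 1091, 1364 and 1588 in the high arrays and 3192, 2899 and 3225 in the low arrays (index -1.22, adjusted p = 0.00051). The enzyme and its substrate lay on different sides, and neither gene's arrays overlapped. Of 15 juvenile hormone and ecdysone genes 2 (13.3%) were called higher and 0 lower (median 0.45), with the higher share below the 16.6% of all genes. They were Jhedup, a relative of juvenile hormone esterase, at 1.94 and the epoxide hydrolase Jheh2 at 0.78. The Jheh2 call was lost with median centring and without high replicate 2 or low replicate 2 or 3, and 4 genes of the list were called higher with the replicate block or without high replicate 1.

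The last comparison set the index on 4% YE beside that on 0.25% YE, the restricted diet. The diets share no arrays, but all 12 were normalized together and share an estimate of spread for each probe set. The calls on the diets are therefore not independent of each other. On 0.25% YE 9.94% of genes were called higher and 11.8% lower in the high fraction. Of the 3276 genes called on 4% YE, 3232 had an index of the same sign on 0.25% YE. In all, 1745 genes were called in the same direction on both diets, which is 53.3% of the calls on 4% YE and 84.7% of those on 0.25% YE, and 0 were called in opposite directions. The change of the index between diets was itself called for 1 probe set, 0.00888% of those tested (0.0105% with 1 probe set per gene). At an unadjusted p under 0.05 there were 484, beside 563 from chance alone.

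All 32 named well-measured genes had an index of the same sign on both diets, and 31 were called on both. The index of Gs1 was 1.85 ± 0.18 on 4% YE and 1.26 ± 0.18 on 0.25% YE, that of Cat 1.85 ± 0.17 and 1.17 ± 0.17, and that of Bcat 1.83 ± 0.25 and 1.00 ± 0.25. These differences between diets were not called (adjusted p = 0.995 for Bcat). All 32 genes were chosen for extreme indices on 4% YE, so a less extreme index on 0.25% YE can follow from that choice alone. The index of Nmdmc was 2.02 ± 0.58 on 4% YE and 1.34 ± 0.58 on 0.25% YE, where it was not called (adjusted p = 0.12). The index of BomS5 was -2.48 ± 0.21 on 4% YE and -2.26 ± 0.21 on 0.25% YE, and that of CG42481 was -2.73 ± 0.32 and -2.39 ± 0.32. Among the lists, the median index of tubulins was 1.11 on 4% YE and 0.55 on 0.25% YE, that of CCT 1.10 and 0.70, and that of Sm and LSm proteins -1.31 and -0.59. That of neuropeptide precursors was -0.01 on 4% YE and 0.69 on 0.25% YE. Tubulins and the Sm and LSm proteins were the ends of the range of list medians on 4% YE, so the same limit holds for them. Differences between list medians were not tested.

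**Figure D5:**
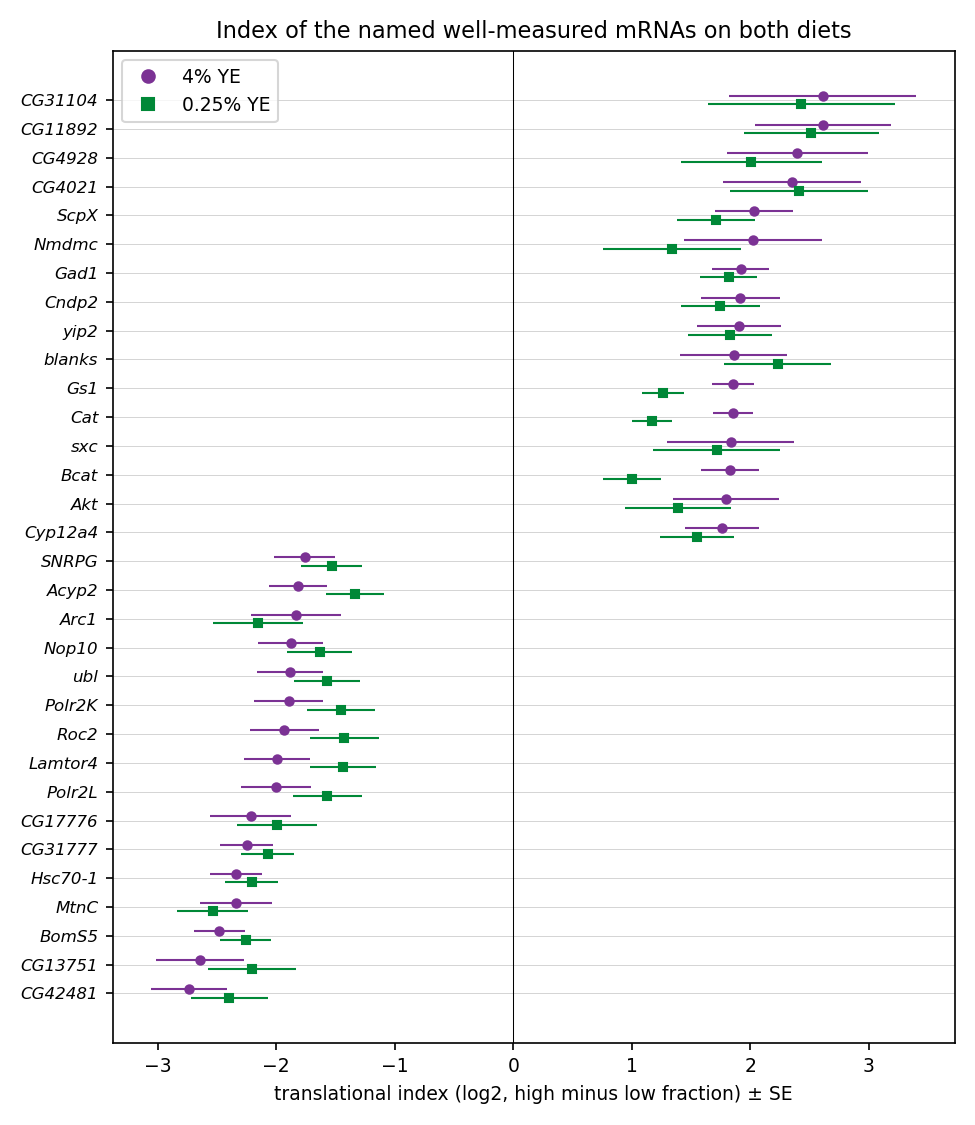
Translational index (x axis, log2, high minus low fraction, with bars of ± 1 SE from limma) of the 32 named well-measured genes on 4% YE (purple circles) and on 0.25% YE (green squares). Both marks of a gene lie on the same side of 0 for all 32. The genes were chosen by their index on 4% YE, and most of them, among them Gs1, Cat and Bcat, lie closer to 0 on 0.25% YE.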

How the data were processed

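The deposited values are array intensities of 12 single-colour arrays, each labelled from 100 ng of RNA per the labels, with 1 intensity for a probe set. How the authors summarised probes, subtracted background or scaled arrays is not given in the sources used. The deposited intensities were linear, with array medians of 39.3 to 95.6 and 9.45% to 13.7% of values below 0, so the arrays were not on a common scale. No pair of replicates had identical values. The number of arrays, 3 per group, limits the precision, and p-values measure the spread between what the series' design text calls biological replicates.

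All 12 arrays were quantile normalized on the 18769 probe sets other than the 100 controls, set to 0 where negative, and transformed to log2(value + 1). Probe sets with a mean intensity below 23.7, the dimmest 40%, were left out. A limma fit (version 3.58.1, R 4.3.3) gave 1 mean per group (lmFit, eBayes with an intensity trend, 8 residual degrees of freedom), with two-sided p-values adjusted by Benjamini-Hochberg over all probe sets tested and calls at an adjusted p under 0.05. SE is that of limma. Of all probe sets 13647 had 1 gene symbol, 402 several and 4720 none, and 13544 matched the gene table supplied. A gene with several probe sets is given by its brightest.

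The comparison, the 60 lists (1343 entries, 40 of them not in the gene table) and the named genes were chosen with earlier results of these data known, so no list is independent evidence. Named genes were the 12 with the largest and the 12 with the smallest index that have a name, and the 4 and 4 that have only a number, among well-measured genes as defined in the text. From each list up to 3 called members of smallest p were named, with any called member on the other side. After values were seen a complex I gene was taken out of the named genes and Trxr1 out of the cochaperone list, both for their identity. No protein sequences or lengths were used here, so the planned comparison of index and protein length was not run.

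The replicate numbers come from the titles and were taken to pair the fractions, since deviations from group means correlated at 0.505, 0.296 and 0.503 between high and low arrays of the same number on 4% YE, although high replicate 2 and low replicate 3 also correlated at 0.294. The first replicate of 4% YE carries no number in its title and was taken as number 1. The main fit used no block and so no pairing. In the replicate block, arrays of both diets with the same number share a level, a link between diets that the labels do not state. That fit is quoted where it moved the count of a list described in the text by over 1.5 times. Single genes called only with it are otherwise not listed. The block by gradient keeps the diets apart and is given only for counts over all probe sets. Simulated data for the 4% YE comparison held 11261 probe sets. The procedure recovered 37 of 100 changes of 2-fold and 85 of 100 of 4-fold, and called 14 unchanged probe sets. Only these planted changes were present, against 34.1% of probe sets called in the data, and the simulated noise was independent between arrays. The simulation therefore does not give the share of changes recovered in the data. Alternatives were the scaling, the pseudocount (16), the filter (none, or 60%), the block, the trend and leaving out each array.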

Additional observations from a re-analysis of the deposited data

Results flagged for a closer look

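The index of CG43131 was the only one whose change between diets was called (5.30, 0.25% YE minus 4% YE, SE 0.63, adjusted p = 0.022 in limma). On 4% YE its intensity averaged 33.4 ± 3.65 in the high arrays and 58.0 ± 7.66 in the low arrays (SD, n = 3 each). On 0.25% YE the averages were 30.1 ± 11.1 in the high arrays and 0.36 ± 0.62 in the low arrays, where it was near 0, so the size of the fitted difference depends on the pseudocount. With a pseudocount of 16 the change was not called.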

How the results depend on the processing

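No call of the 4% YE index changed sign in any alternative. Called probe sets numbered 3845, 2400 as deposited (1864 higher, 536 lower), 3858 with median centring, 4763 on the 4% YE arrays alone, 2957 with the 60% filter, 3545 with none, 5101 with the replicate number as a block and 4706 with a block by gradient. Leaving out 1 array gave 2614 to 4762 calls, of which 1158 to 2342 were higher and 1444 to 2420 lower, the fewest higher without high replicate 2 (1158) and low replicate 3 (1170) on 4% YE. Without both arrays of replicate 1 there were 2791. The index change had 1 call, 0 with pseudocount 16, the 60% filter or either replicate block, 4 with no filter, 3 with no trend, 0 to 1 with 1 array left out and 0 without replicate 1. Of the named genes' results under these alternatives 690 kept direction and call and 14 kept direction only, those of Nmdmc, CG31104 and sxc. Of 1334 list medians recomputed 151 moved by more than the spread between replicates. The causes were not tested. Dim mRNAs are the least certain, since 40% of probe sets were too dim to test. The comparison with protein length and its alternatives were not run.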

Other observations

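Lipid and peptide enzymes outside the families above had most of their calls toward the high fraction on 4% YE. Of 13 lipases 4 were called higher and 1 lower (median index 0.68, beside 16.6% and 17.9% of all genes). The 4 include CG17097 (index 1.41, adjusted p = 0.0036 in limma), a gene left out of the well-measured set above with the seminal fluid genes. The triglyceride lipase brummer (bmm), which mobilises stored fat, measured 1103, 1134 and 1261 in the high arrays and 635, 791 and 766 in the low arrays (index 0.68 ± 0.18, adjusted p = 0.013 in limma). Lip2 measured 40.03, 101 and 91.0 in the high arrays and 165, 299.2 and 296 in the low arrays, the 1 lipase lower in the high fraction (index -1.75 ± 0.41, adjusted p = 0.0063). The arrays of the fractions did not overlap for either gene. With the replicate block 2 lipases were called lower. The higher lipase calls became 2 without high replicate 3, low replicate 1, low replicate 3 or both arrays of replicate 1. Of 12 neprilysins and angiotensin-converting enzymes, which cut peptides at the cell surface or outside cells, 3 (25%) were called higher and 0 lower (median 0.39). The higher share stood beside 16.6% of all genes, and 5 were called higher without scaling. Nep2 measured 370.0, 513 and 454 in the high arrays and 191, 159.8 and 154 in the low arrays (index 1.39 ± 0.29, adjusted p = 0.0033).

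Of 19 tetraspanins, membrane proteins with several spans, 2 were called higher and 2 lower (median 0.36). Both shares were 10.5%, below the 16.6% and 17.9% of all genes. Tsp42Ej measured 329, 328 and 311 in the high arrays and 864, 897 and 926 in the low arrays (index -1.47 ± 0.24, adjusted p = 0.00092), and Tsp66E had an index of 1.07 ± 0.22. With the replicate block 5 tetraspanins were called higher and 3 lower, and without scaling 3 higher and 0 lower. The lower count was 1 without high replicate 3 or low replicate 1, and the higher count 4 without high replicate 1 and 1 without both arrays of replicate 1.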
